A study of Rattus norvegicus with 2 samples.

Results

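Pcsk1-positive cells of the balloon-injured rat carotid artery were defined as cells with 2 or more unique molecular identifiers (UMIs, counted RNA molecules) of Pcsk1. Of 4659 cells kept in the injured library, which had at least 2000 UMIs and at most 20% of UMIs from mitochondrial (Mt-) genes, 209 were Pcsk1-positive. In the control library 50 of 1999 kept cells were, so 259 of 6658 cells in all met the rule. Single-cell RNA-seq was done on droplets, with 1 library for each of 2 groups. The control group held whole left carotid arteries and the case group balloon-injured right carotid arteries of the same 2 male Sprague-Dawley (SD) rats, pooled and digested with trypsin and collagenase 28 days after injury. The sample labels give an age of 12 weeks, and the methods 8 weeks at the start. Each library therefore stands for 2 pooled animals. With 1 library per group there was no replicate: levels and shares below carry exact 95% intervals that cover counting error only, and no difference was tested against variation between animals. Kept cells held a median of 5345 UMIs in the injured and 11680 in the control library. The libraries had 21 cell barcodes in common, 5 of them among kept cells, and 0 Pcsk1-positive cells of the injured artery carried such a barcode.

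Pcsk1 encodes prohormone convertase 1/3, a serine protease that cuts prohormones into active peptides inside the dense-core granules of endocrine and neuronal cells. There it works with carboxypeptidase E (Cpe), which trims the cut ends, and with Pam, which amidates peptides, while chromogranins and secretogranins help to build the granule. Pcsk1 is not a customary marker of an arterial cell type. The genes given with it as markers belong to the vessel wall: Vcam1 is the adhesion molecule that leukocytes bind through an integrin and is a well-known target of nuclear factor kappa B (NF-kB), Mgp (matrix Gla protein) inhibits calcification, and Fibin encodes a secreted fin bud initiation factor homologue. These markers had been chosen on these data, so their levels are a description.

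The promoter of Vcam1 is shown because it was the only 1 of the 4 given markers with an entry in the promoter table used here. RefSeq gives it in build GRCr8 at chr2:206742734-206743033 on the minus strand, from 250 bases before to 50 bases after the start site. Capitals mark matches, on either strand, to an NF-kB motif (GGG and CC at its ends, TT inside and any base at the other positions) and to TATAAA, the TATA box.
Vcam1: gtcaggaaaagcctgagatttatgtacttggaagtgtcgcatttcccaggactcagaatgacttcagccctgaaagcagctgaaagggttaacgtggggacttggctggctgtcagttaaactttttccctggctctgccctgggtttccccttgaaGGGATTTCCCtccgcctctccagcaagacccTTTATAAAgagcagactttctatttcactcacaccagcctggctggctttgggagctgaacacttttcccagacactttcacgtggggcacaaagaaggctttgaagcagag
The NF-kB motif matched once, as GGGATTTCCC at bases 158 to 167 of the window. The TATA box matched in both directions at bases 189 to 196, where the matches overlap. Of 33469 rat promoters of the same length, 5.00% held the NF-kB motif and 14.2% the TATA box. The CRE motif TGACGTCA, found in 1.83% of promoters, and the AP-1 motif TGANTCA, found in 7.33%, had no match in this window. These are letter matches and do not show binding.

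Pcsk1 itself was sparse. In the injured library 4183 cells had 0 Pcsk1 UMIs, 267 had 1, 100 had 2, 60 had 3 and 49 had 4 or more. Pcsk1-positive cells held 722 Pcsk1 UMIs with a median of 3 per cell. The highest cell had 41, which was 5.68% of the total, the next had 14, and 7 cells had 10 or more. In the control library the counts for 0, 1, 2, 3 and 4 or more UMIs were 1857, 92, 28, 12 and 10 cells, with a highest value of 8.

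The share of Pcsk1-positive cells was 4.49% (3.91 to 5.12) in the injured and 2.5% (1.86 to 3.28) in the control artery. Members were thus not confined to the injured library, although control cells were sequenced more deeply, which raises the chance of finding 2 UMIs. After every cell had been thinned to 2000 UMIs, 1.57% (1.23 to 1.97) of injured and 0.40% (0.173 to 0.787) of control cells had 2 or more Pcsk1 UMIs. The level of Pcsk1 over all kept cells was 36.5 counts per 1000000 UMIs (CPM) in the injured and 10.1 CPM in the control library, a log2 ratio of 1.85 (1.64 to 2.06). The ratio was 1.43 (1.17 to 1.70) within smooth muscle cells and 1.65 (1.16 to 2.16) within fibroblasts, classes defined in the next paragraph. All of these intervals lie above 0, but 1 library per group cannot separate injury from a difference between the libraries.

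The Pcsk1-positive cells were sorted by genes of vascular smooth muscle cells (VSMCs) and of fibroblasts. A cell was put in the smooth muscle class when Acta2, Tagln, Myl9, Myh11, Cnn1 and Cald1, genes of the contractile apparatus, held 1% or more of its UMIs, and in the fibroblast class when Col1a1, Col3a1, Dcn and Lum, genes of the collagenous matrix, held 1.5% or more. Of the 209 cells, 109 (52.2%) were in the smooth muscle class only, 26 (12.4%) in the fibroblast class only, 4 (1.91%) in both and 70 (33.5%) in neither. The last are defined only as cells under both limits, which does not name a cell type. Of the 70, 65 had 5 or more UMIs of the smooth muscle marker list and 64 of the fibroblast list. But 613 of 1179 Pcsk1-zero fibroblasts also had 5 or more of the smooth muscle list. So had 2013 of 2127 Pcsk1-zero smooth muscle cells for the fibroblast list, so these counts do not assign a type. Within the classes, 4.57% (3.77 to 5.49) of smooth muscle cells, 2.14% (1.40 to 3.12) of fibroblasts and 6.84% (5.37 to 8.56) of cells in neither class were Pcsk1-positive. Outside the Vcam1- and Fibin-led cluster described later, these shares were 4.41% (3.61 to 5.32), 1.61% (0.971 to 2.5) and 3.91% (2.77 to 5.35), and 33 of the 70 positive cells in neither class were inside it. Free RNA in the droplets can give Pcsk1 UMIs to cells that do not express the gene. The interval of the fibroblast share overlapped those of the endothelial-type clusters 9 and 10, at 0.671% (0.017 to 3.68) and 1.41% (0.171 to 5.00). That of the smooth muscle share overlapped cluster 10. Outside the Vcam1- and Fibin-led cluster, the smooth muscle, fibroblast and neither-class intervals all overlapped those of both endothelial-type clusters. By these shares Pcsk1 was not shown to lie above background in the fibroblast or smooth muscle class as a whole. The same holds for the share of cells in neither class outside that cluster. By level, which is counted per UMI, the smooth muscle class had 32.6 CPM (29.8 to 35.7). That lay above cluster 9, at 4.93 CPM (1.34 to 12.6), and cluster 10, at 14.5 CPM (6.94 to 26.6). It overlapped cluster 11, led by genes such as Cd74, at 40.7 CPM (27.5 to 58.1). The fibroblast class, at 18.1 CPM (15.2 to 21.4), overlapped cluster 10. The part of free RNA was not tested. Cells in neither class had a median of 4491 UMIs when Pcsk1-positive, against 5318 in the smooth muscle and 6294.5 in the fibroblast class, where the 4 cells of both classes are counted in each. The 50 Pcsk1-positive control cells divided into 31, 10, 2 and 7 cells in the same order.

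**Figure D1:**
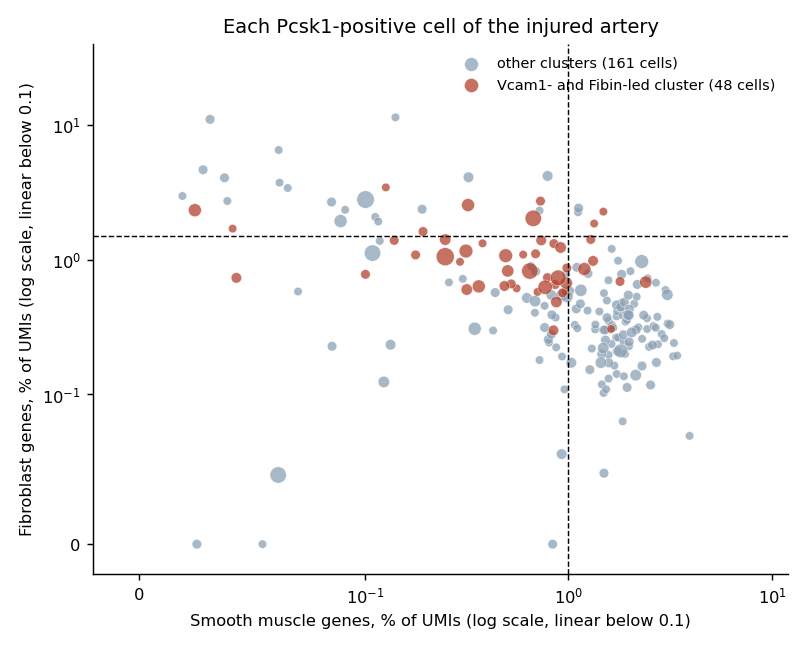
Each point is 1 of the 209 Pcsk1-positive cells of the injured artery, placed by the percent of its UMIs from 6 smooth muscle genes (x) and 4 fibroblast genes (y), on log scales that are linear below 0.1. Larger points hold more Pcsk1 UMIs, dashed lines are the class limits of 1% and 1.5%, and the 48 red cells belong to the Vcam1- and Fibin-led cluster, 33 of them in neither class.

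Markers of other cell types were checked in the Pcsk1-positive cells. The smooth muscle list of 10 genes summed to 13410 CPM, led by Tagln at 5781 CPM, and the fibroblast list of 7 measured genes to 11390 CPM, led by Col3a1 at 4937 CPM. The endothelial list of 11 genes summed to 41.7 CPM, led by Cdh5 at 18.3 CPM, and 3 cells had 5 or more UMIs of it. T cell genes summed to 0.833 CPM with 5 of 6 genes at 0. Schwann cell genes summed to 53.3 CPM, of which S100b made up 45.8 CPM. The microvascular mural list summed to 807 CPM, next to 741 CPM in Pcsk1-zero smooth muscle cells. Neuroendocrine and neuronal genes summed to 3.33 CPM, with 7 of 9 at 0, including the granule protein genes Chga and Chgb. The defining markers of a neuroendocrine cell were therefore at or near 0.

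Macrophage genes summed to 557 CPM, led by Cd74 at 388 CPM, against 41.6 CPM in Pcsk1-zero smooth muscle cells. Over all 4183 Pcsk1-zero cells of the injured library, macrophages included, they summed to 570 CPM, so the sum does not set Pcsk1-positive cells apart. In the Pcsk1-positive cells this signal sat in few cells. Of 967 UMIs of the antigen-presenting (MHC class II) genes Cd74, RT1-Da, RT1-Db1, RT1-Ba and RT1-Bb, 948 (98%) were in 4 of the 209 cells, and 1 cell held 43.4%. None of these cells was in the Vcam1- and Fibin-led cluster described next. Among the 4183 Pcsk1-zero cells, 68 had 5 or more class II UMIs.

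Pcsk1-positive cells were most frequent in 1 small group of cells. The injured library was clustered without Pcsk1, and cluster 8 of 16 was then picked for its share of Pcsk1-positive cells, so this share is a description. It held 175 cells (3.76% of the library) and had Vcam1, Fibin, Timp3, Spp1 and Lbp among its leading genes. In it 48 cells, 27.4% (21.0 to 34.7), were Pcsk1-positive, against 161 of 4484 cells elsewhere, 3.59% (3.07 to 4.18). Of the 49 cells with 4 or more Pcsk1 UMIs, 23 (46.9%) were in it, among them the cell with 41 UMIs. The level of Pcsk1 was 233 CPM in this cluster. Every other cluster of 50 or more cells had a share between 0.671% and 6.76%. In the endothelial-type clusters 9 and 10, led by genes such as Vwf and Cdh5, the share was 0.671% (0.017 to 3.68) and 1.41% (0.171 to 5.00) at a median depth of 4259 and 4265 UMIs per cell, against 5632 in cluster 8, and both positive cells of cluster 10 had 4 or more Pcsk1 UMIs. In cluster 11, led by genes such as Cd74 and C1qa, it was 4.07% (1.33 to 9.23), and after thinning 7.32% of its cells had a Pcsk1 UMI, next to 6.29% in cluster 1. Clusters 1, 2, 6 and 7 held mostly cells of the smooth muscle class, with shares of 4.67% (3.54 to 6.04), 6.76% (5.14 to 8.68), 3.93% (2.05 to 6.77) and 3.14% (1.16 to 6.71). Of these only the interval of cluster 2 lay above those of both endothelial-type clusters, and it overlapped that of cluster 11. Clusters 3, 4 and 5, mostly of the fibroblast class, had 1.35% (0.62 to 2.55), 0.744% (0.154 to 2.16) and 2.78% (1.34 to 5.05), all overlapping the endothelial-type intervals.

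The cluster was spread over the classes. Of its 175 cells 45 were in the smooth muscle class, 32 in the fibroblast class, 20 in both and 78 in neither, and its Pcsk1-positive cells had 8040 CPM of smooth muscle genes and 11166 CPM of fibroblast genes. Doublets, droplets that hold 2 cells, also carry genes of both kinds. The 225 highest Scrublet doublet scores of the library, set by the expected doublet rate of 4.52% with ties kept, included 34.9% of the cluster, 49 of its 99 Pcsk1-zero cells (49.5%) and 2 of its 48 Pcsk1-positive cells (4.17%). Without these high-scoring cells the share of Pcsk1-positive cells was 40.4% (31.3 to 49.9), 46 of 114 cells, against 3.29% (2.78 to 3.86) elsewhere. At a Leiden resolution of 1.2 the highest share of Pcsk1-positive cells in a cluster was 26.7%, and at 0.4 it was 6.98%. These shares alone do not show whether the same cells were grouped. In the control library clustered alone the highest share was 6.12% (1.28 to 16.9), 3 of 49 cells. That cluster was led by endothelial-type genes such as Cdh5 and Plvap, with Vcam1 and Fibin not among its leading genes. Of its 49 cells 20 were in both classes. When both libraries were clustered together, the matching cluster had 51 Pcsk1-positive of 228 injured cells (22.4%, 17.1 to 28.3) and 5 of 65 control cells (7.69%, 2.54 to 17.0). Of these injured cells 37.3% had a high doublet score and 27 were in both classes. Of the control cells 47.7% had a high score and 28 were in both classes. The part of doublets in these 2 shares was not tested.

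**Figure D2:**
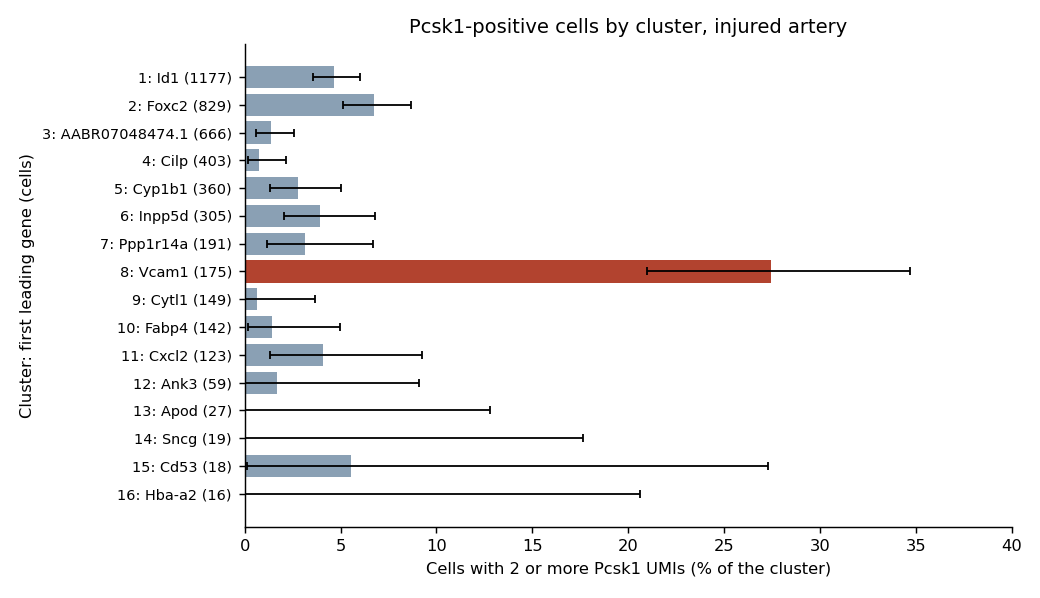
Bars give the percent of cells with 2 or more Pcsk1 UMIs in each of 16 clusters of the injured library, with exact 95% binomial intervals (counting error only); each cluster is labelled by its first leading gene and its number of cells. Cluster 8 reaches 27.4%, and the other clusters of 50 or more cells stay at or below 6.76%.

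Of the given markers Vcam1 differed most. Pcsk1-positive cells had 337 CPM of Vcam1 (305 to 371), against 93.3 CPM in the 2127 Pcsk1-zero smooth muscle cells and 99.7 CPM in the 1179 Pcsk1-zero fibroblasts, log2 ratios of 1.85 (1.69 to 2.01) and 1.76 (1.58 to 1.93). Mgp was at 2798 CPM against 2086 and 2097 CPM, with a ratio of 0.42 in both. Fibin was at 59.2 CPM against 29.7 and 40.2 CPM, ratios of 1.00 (0.61 to 1.36) and 0.56 (0.16 to 0.94). After thinning to 2000 UMIs, 32.5% of Pcsk1-positive cells had a Vcam1 UMI, compared with 12.3% of the smooth muscle and 12.0% of the fibroblast cells without Pcsk1.

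The Pcsk1-positive cells were then split by the cluster. Since Vcam1 and Fibin were among the genes that formed it, higher levels inside and lower ones outside are fixed by the split and are given as a description. Pcsk1-positive cells inside it had 991 CPM of Vcam1, 4780 CPM of Mgp and 131 CPM of Fibin, and those outside it 156, 2251 and 39.3 CPM. With all cells of the cluster left out of both groups, the Vcam1 ratio to Pcsk1-zero smooth muscle cells was 0.72 (0.46 to 0.97), that of Mgp 0.11 (0.05 to 0.18) and that of Fibin 0.46 (-0.07 to 0.95). Within the smooth muscle class the 113 Pcsk1-positive cells, those in both classes included, had 149 CPM of Vcam1 (ratio 0.68, 0.37 to 0.98) and the 105 of them outside the cluster 121 CPM, a ratio of 0.35 (-0.01 to 0.70) to the 2081 Pcsk1-zero smooth muscle cells outside it. Of the 113 cells, the 66 with 2 Pcsk1 UMIs had 114 CPM (82.3 to 153), which overlaps 93.3 CPM (88.1 to 98.7) in Pcsk1-zero cells. The 47 with 3 or more had 199 CPM (150 to 260). The 30 Pcsk1-positive cells of the fibroblast class had 332 CPM of Vcam1, a ratio of 1.74 (1.37 to 2.09) to Pcsk1-zero fibroblasts, 3715 CPM of Mgp (0.82, 0.72 to 0.93) and 27.7 CPM of Fibin (-0.54, -2.00 to 0.60). The cluster held 9 of these cells, and the 21 others had 174 CPM of Vcam1, 31 UMIs, a ratio of 0.91 (0.34 to 1.43) to the 1149 Pcsk1-zero fibroblasts outside it, and a Mgp ratio of 0.60 (0.48 to 0.72). Of the 30 cells 7 (23.3%) had a high doublet score, as had 10.0% of all Pcsk1-positive and 4.40% of Pcsk1-zero cells, and the part of doublets in the result was not tested.

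Inside the cluster the comparison changed with the doublet score. Against all 99 Pcsk1-zero cells of the cluster, its Pcsk1-positive cells had a Vcam1 ratio of 1.66 (1.40 to 1.93) and a Mgp ratio of 0.47 (0.37 to 0.56). With high-scoring cells left out, 46 Pcsk1-positive cells had 1061 CPM of Vcam1 and 50 Pcsk1-zero cells 815 CPM, a ratio of 0.38 (0.11 to 0.65). Mgp was then lower in the Pcsk1-positive cells, at 5107 against 6416 CPM (-0.33, -0.44 to -0.22), and so was Fibin, at 141 against 223 CPM (-0.66, -1.32 to -0.03). Within the cluster, then, Mgp and Fibin did not mark its Pcsk1-positive cells once high-scoring cells were left out. Of 2567 genes, 62 (2.42%) were 2-fold or more higher and 45 (1.75%) lower than in all Pcsk1-zero cells of the cluster.

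By Pcsk1 count, Vcam1 was at 113 CPM in cells with 0 Pcsk1 UMIs, 199 CPM with 1, 223 CPM with 2, 378 CPM with 3 and 505 CPM with 4 or more. Cells just outside the rule, with 1 UMI, and just inside it, with 2, had overlapping intervals for all 3 genes. The share of cells in the cluster was 2.37%, 10.5%, 11%, 23.3% and 46.9% in the same order. Outside the cluster Vcam1 was at 107, 143, 110, 209 and 221 CPM in this order, and Mgp at 2070, 2347, 2277, 2569 and 1783 CPM. Outside the cluster Mgp thus did not follow the Pcsk1 count.

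**Figure D3:**
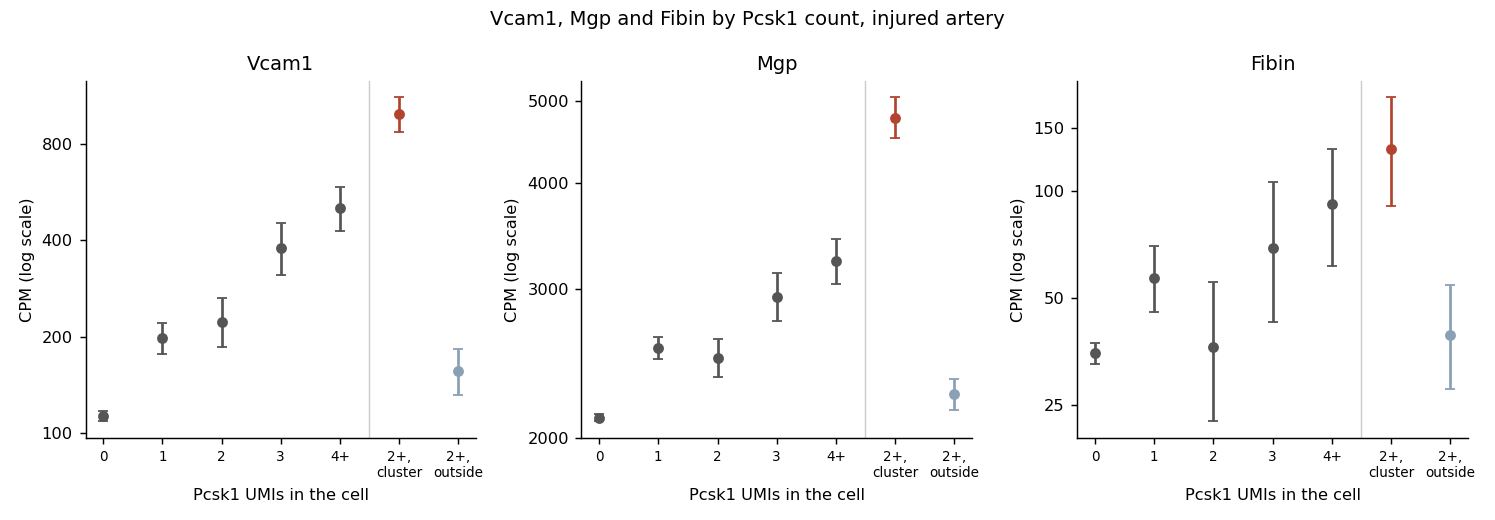
Points give CPM (log scale) of Vcam1, Mgp and Fibin, summed over injured-artery cells with 0, 1, 2, 3 or 4 or more Pcsk1 UMIs, and over cells with 2 or more (2+) inside (red) and outside (blue) the Vcam1- and Fibin-led cluster; bars are exact 95% Poisson intervals for counting error only. Inside the cluster Vcam1 is at 991 CPM, and outside it at 156 CPM.

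The partners of Pcsk1 in peptide processing were examined next. The list of the regulated secretory pathway had 17 genes in the files, 3 of which reached a mean of 50 CPM, the limit for a comparison. Cpe was at 622 CPM in Pcsk1-positive cells, 928 CPM in Pcsk1-zero smooth muscle cells and 109 CPM in Pcsk1-zero fibroblasts. Pam was at 1318, 1645 and 565 CPM in the same order. Within the smooth muscle class neither differed by much: Cpe had a log2 ratio of -0.12 (-0.25 to 0.00) and Pam of 0.00 (-0.09 to 0.09). Both enzymes were thus abundant in smooth muscle cells with and without Pcsk1. Cpd, a related carboxypeptidase, was at 73.3, 45.4 and 124 CPM.

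Granule proteins were at or near 0. Chga, Chgb, Scg2, Ptprn2 and Syt7 had 0 UMIs among 1200257 UMIs of the Pcsk1-positive cells, which allows up to 3 counts each, and Scg3, Scg5 and Vgf had 1 UMI each. Ptprn, a membrane protein of dense-core granules, was at 12.5 CPM, 15 UMIs in 13 cells, against 1.46 CPM in Pcsk1-zero smooth muscle cells and 14.6 CPM in Pcsk1-zero fibroblasts. Of the other proprotein convertases, Furin was at 41.7 CPM, Pcsk5 at 65.0 CPM, Mbtps1 at 29.2 CPM, Pcsk6 at 20.8 CPM and Pcsk7 at 9.16 CPM, while Pcsk2, the partner of Pcsk1 in endocrine cells, had 2 UMIs. Pcsk5 had 58.5 CPM in Pcsk1-zero smooth muscle cells, a ratio of 0.15 (-0.20 to 0.49).

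Few genes of the list of prohormones and other peptide precursors were measured well. Pcsk1 cuts prohormones, but whether it cuts the protein of each listed gene was not tested. Of 28 listed genes in the files 4 reached the limit against smooth muscle cells: Igf1 at 89.1 CPM, Adm (adrenomedullin, a vasodilator peptide) at 117 CPM, Stc1 (stanniocalcin) at 71.7 CPM and Nucb2 (nesfatin precursor) at 99.1 CPM. Adm was at 35.4 CPM in Pcsk1-positive smooth muscle, 167 CPM in neither-class and 267 CPM in fibroblast-class cells, and Igf1 at 6.16, 39.6 and 410 CPM. Penk, the enkephalin precursor, was at 41.7 CPM, 50 UMIs in 21 cells, against 19.2 CPM in Pcsk1-zero smooth muscle cells and 31.6 CPM in Pcsk1-zero fibroblasts. Pomc had 3 UMIs, and Npy, Pdyn, Cck, Tac1, Vip, Sst and Ghrl had 0.

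The Pcsk1-positive cells were then compared over all genes with Pcsk1-zero smooth muscle cells. Of 2488 genes with a mean of 50 CPM, 85 (3.42%) were 2-fold or more higher and 15 (0.603%) 2-fold or more lower. After the class II genes, the chemokine Ccl2 had the highest ratio, at 439 against 40.7 CPM (3.43, 3.25 to 3.61). Marcks followed with a ratio of 3.37 (3.03 to 3.71), and the chemokine Cxcl1 at 374 against 46.3 CPM (3.01, 2.84 to 3.19). Dpt (dermatopontin), Cyp1b1, Igf1, Abi3bp, Igfbp5, Il6, Tnfaip6, Gfpt2 and Fbln1 (fibulin 1) had ratios from 2.85 down to 2.20. The lowest ratios were those of P2rx1, the smooth muscle ATP receptor, at 59.2 against 143 CPM (-1.27, -1.63 to -0.93), Plcb4, Pln (phospholamban, which restrains the calcium pump) at 126 against 289 CPM, Fbxl22, Ptgs1, Pcp4l1, RGD1306556, Mustn1, Bcam and Lims2.

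The classes held these differences apart. Ccl2 was at 1609 CPM in Pcsk1-positive fibroblast-class cells and 1573 CPM in Pcsk1-zero fibroblasts, but at 132 CPM in Pcsk1-positive smooth muscle cells. Dpt was at 46.2 CPM in Pcsk1-positive and 53.7 CPM in Pcsk1-zero smooth muscle cells, against 1664 and 1908 CPM in fibroblasts. Pln was at 179 CPM in the Pcsk1-positive smooth muscle cells and 55.3 CPM in the Pcsk1-positive fibroblasts. For these genes the level followed the class of the cell more than its Pcsk1 count.

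**Figure D4:**
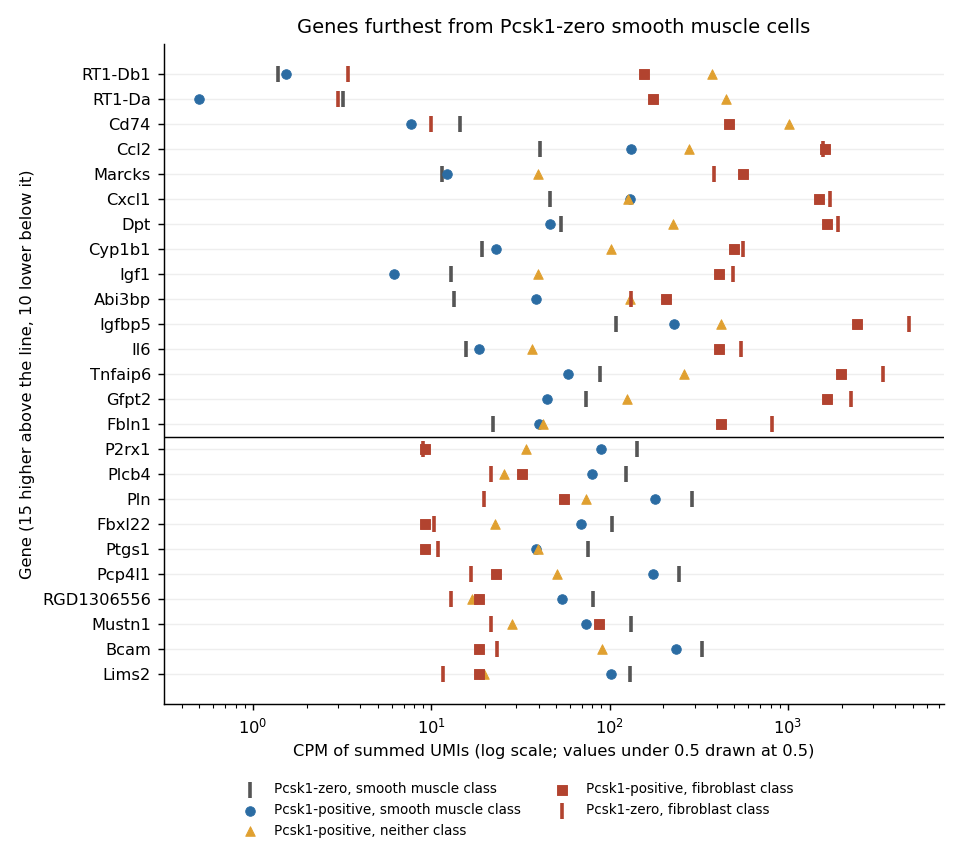
For the 15 genes with the highest and the 10 with the lowest ratio of all Pcsk1-positive to Pcsk1-zero smooth muscle cells, points give CPM of summed UMIs (log scale, values under 0.5 drawn at 0.5) by class, with circles, triangles and squares for Pcsk1-positive cells and upright ticks for Pcsk1-zero cells. For Dpt the blue circle (46.2 CPM) lies beside the grey tick (53.7 CPM) and the red square (1664 CPM) beside the red tick (1908 CPM), while for Ccl2 the blue circle (132 CPM) is right of the grey tick (40.7 CPM).

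Within the smooth muscle class few genes differed. Of 2441 genes 6 (0.246%) were 2-fold or more higher in the 113 Pcsk1-positive cells and 0 (0%) were 2-fold or more lower. The 6 were Ccl2, at 132 against 40.7 CPM (1.70, 1.36 to 2.03), Cxcl1, at 129 against 46.3 CPM, Zg16b (a secreted lectin), at 89.4 against 33.2 CPM, Igfbp5, at 231 against 109 CPM, Slfn2, at 98.6 against 48.5 CPM, and Tgfbr1 (type 1 receptor of TGF-beta), at 75.5 against 37.6 CPM. The Ccl2 UMIs, 86 in all, came from 7 of the 113 cells, and 105 cells outside the cluster had 51.6 CPM of Ccl2 and 34.9 CPM of Cxcl1. With the cluster's Pcsk1-positive cells left out, 2 genes, Zg16b and Slfn2, were 2-fold or more higher (0.0822%) and 1, Gfpt2, was lower (0.0411%). With its Pcsk1-zero cells left out too, 5 genes of 2428 were higher (0.206%), Zg16b, Slfn2, Tgfbr1, Igfbp5 and Ifi27l2b, and 0 lower (0%).

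In the same cells the interval of the ratio, for counting error only, lay above 0 for 292 (12.0%) and below 0 for 220 (9.01%) of the 2441 genes. The following examples were chosen after their values were seen. Csf1 (macrophage colony-stimulating factor) was at 105 against 59.8 CPM (0.81, 0.43 to 1.17), Sulf2 at 117 against 62.6 CPM, the transcription factor Runx1 at 114 against 61.9 CPM, Hgf at 78.6 against 45.5 CPM, Crem, a cAMP-responsive regulator, at 379 against 237 CPM (0.68, 0.48 to 0.86) and Timp3, an inhibitor of matrix proteases, at 758 against 462 CPM (0.71, 0.58 to 0.85). Spp1 (osteopontin), a gene of synthetic VSMCs, was at 387 against 259 CPM (0.58, 0.39 to 0.76). Sulf2, Timp3 and Spp1 are among the leading genes of the Vcam1- and Fibin-led cluster, and 105 of the 113 cells were outside it. For Sulf2 the interval of the ratio also lay above 0 with the cluster's Pcsk1-positive cells left out. For Timp3 and Spp1 the part of the cluster's cells was not tested. On the other side Ptgs1 was at 38.5 against 75.9 CPM (-0.98, -1.61 to -0.41), Pln at 179 against 289 CPM (-0.69, -0.97 to -0.42) and Csrp1 at 1182 against 1578 CPM (-0.42, -0.52 to -0.31).

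The control artery gave a partial comparison, from the other artery of the same animals. Its 33 Pcsk1-positive smooth muscle cells had 224 CPM of Vcam1 against 139 CPM in Pcsk1-zero ones (0.69, 0.38 to 0.98). The 19 of them with 2 Pcsk1 UMIs had 102 CPM (66.5 to 149) and the 14 with 3 or more 388 CPM (304 to 487), where 1 cell held 40 of 74 Vcam1 UMIs. Mgp had a ratio of 0.25 (0.18 to 0.33). Ccl2 was at 208 against 26.8 CPM, but Cxcl1 at 11.2 against 61.7 CPM. Runx1 was at 20.2 against 36.0 CPM, Csf1 at 47.1 against 53.8 CPM, Sulf2 at 33.6 against 46.2 CPM and Spp1 at 217 against 324 CPM, all with a ratio below 0 where the injured artery had one above it. Of these 4 only the interval of Spp1 (-0.57, -0.88 to -0.28) excludes 0, and the difference between the arteries was not tested. Hgf, Crem, Timp3, Zg16b, Igfbp5, Slfn2 and Tgfbr1 were also higher in the injured artery, but their control levels are not given. The 4 genes are therefore examples and no tally. Of 2613 genes 16 (0.612%) were 2-fold or more higher and 3 (0.115%) lower in these cells. The 12 Pcsk1-positive fibroblasts of the control artery had 338 CPM of Vcam1 against 109 CPM (1.63, 1.25 to 2.00). Their smooth muscle list summed to 4550 against 1730 CPM, 6 of 9 measured contractile genes were higher, and 2 of the 12 (16.7%) had a high doublet score, against 3.92% of the Pcsk1-zero ones. In this comparison 156 of 2564 genes (6.08%) were 2-fold or more higher and 71 (2.77%) lower, and the part of smooth muscle RNA or doublets was not tested. All 50 Pcsk1-positive control cells against Pcsk1-zero control smooth muscle cells had 121 of 2668 genes (4.54%) higher and 9 (0.337%) lower.

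The same comparison was made with Pcsk1-zero fibroblasts. Of 2451 genes 271 (11.1%) were 2-fold or more higher and 215 (8.77%) lower in all Pcsk1-positive cells. Behind the class II genes the highest were Mrvi1, Trdn (triadin), Synpo2, Rrad, Itga7, Casq2 (calsequestrin 2), Itga8, Spp1, Nexn, Kcnk3, Tinagl1 and Fblim1, with ratios from 3.91 to 3.21. Itga8, the integrin alpha 8 subunit of smooth muscle, was at 1864 against 190 CPM, and 2777 CPM in Pcsk1-zero smooth muscle cells. The lowest were Apod, with 0 UMIs against 231 CPM, at least 6.53 log2 units lower at a floor of 3 counts over the group, Smpd3, Pi16 (a gene of adventitial fibroblasts) at 41.7 against 992 CPM, Cilp, Gpc3, Cygb and Gpx3. AABR07048474.1, LOC259244 and AABR07048436.1 were among the lowest too, gene models whose levels are left out here as uncertain.

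The 30 Pcsk1-positive cells of the fibroblast class were compared with Pcsk1-zero cells of that class. Of 2409 genes 108 (4.48%) were 2-fold or more higher and 59 (2.45%) lower than in Pcsk1-zero fibroblasts. Smooth muscle markers moved with this comparison: their list of 10 genes summed to 3439 against 1670 CPM, contractile genes had a median ratio of 1.04, with 4 of 8 measured genes higher, and 23.3% of the positive against 5.51% of the Pcsk1-zero cells had a high doublet score. The part of these in the other values was not tested. Pi16 was at 230 against 992 CPM, Smpd3 at 18.4 against 161 CPM and Ptgs2, the inducible prostaglandin synthase, at 668 against 3153 CPM. Dkk3, a secreted protein of the Dickkopf family, was at 489 against 146 CPM, Aqp1 at 152 against 40.6 CPM and Lmcd1 at 120 against 31.9 CPM, and these 3 genes were at 441, 204 and 402 CPM in Pcsk1-zero smooth muscle cells. Class II genes led the higher ones, with Cd74 at 466 against 9.94 CPM, but all 101 Cd74 UMIs came from 1 of the 30 cells, in cluster 11.

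The 70 Pcsk1-positive cells in neither class were compared with 905 Pcsk1-zero cells in neither class, which include the endothelial, immune and blood cells of the library. Of 2607 genes 140 (5.37%) were 2-fold or more higher and 163 (6.25%) lower. Smooth muscle markers moved with this comparison, at 6266 against 2703 CPM, with 6 of 11 measured contractile genes higher, and 33 of the 70 cells were in the Vcam1- and Fibin-led cluster, of which Spp1 is a leading gene. Their part in the other values was not tested. Spp1 was at 538 against 129 CPM, Dkk3 at 693 against 194 CPM, Itga7, the integrin alpha 7 subunit of muscle, at 119 against 30.3 CPM, and Spon1, a secreted matrix protein, at 119 against 32.9 CPM. The chemokine Cxcl3 was at 25.5 against 1263 CPM, Pdpn (podoplanin) at 2.83 against 166 CPM and the haemoglobin gene Hbb at 8.49 against 2092 CPM.

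Only 5 of 2239 genes (0.223%) were 2-fold or more higher in Pcsk1-positive cells than in both Pcsk1-zero classes, and these comparisons share the Pcsk1-positive cells. They were Vcam1, Nrp2 and the class II genes Cd74, RT1-Da and RT1-Db1. Of the 68 Pcsk1-zero cells with 5 or more class II UMIs, 54 were in neither class and so outside both comparisons. Nrp2 (neuropilin 2, a receptor of semaphorins and vascular endothelial growth factors) was at 110 CPM against 53.8 and 52.6 CPM, ratios of 1.03 (0.75 to 1.30) and 1.07 (0.77 to 1.35). Within the smooth muscle class it was at 70.9 CPM (0.40, -0.07 to 0.83). Without the 4 cells rich in class II UMIs 1 gene, Vcam1, was left, with Nrp2 at 0.91 and 0.94. With all cells of the cluster left out of both groups 4 class II genes were, Cd74, RT1-Da, RT1-Db1 and RT1-Ba, and Vcam1 was not. With each class compared with its own Pcsk1-zero cells, 0 genes were higher in both.

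Gene lists are described by their medians and counts. Contractile genes had a median log2 ratio of -0.75 to Pcsk1-zero smooth muscle cells, with 2 of 13 measured genes 2-fold or more lower (0.603% of all genes were), of 2.73 to Pcsk1-zero fibroblasts, with 11 of 12 higher (11.1% of all genes), and of -0.23 within the smooth muscle class, with 0 of 14 called. All genes had a median of 0.06, 0.09 and 0.04 in these comparisons. NF-kB targets and chemokines had medians of 0.75, -0.72 and 0.24, with 6 of 12 higher (3.42% of all genes), 6 of 13 lower (8.77%) and 2 of 9 higher (0.246%), the last being Ccl2 and Cxcl1. Leukocyte adhesion molecules had 0.69, -0.73 and 0.33. In the smooth muscle class Icam1 was at 176 against 123 CPM (0.52, 0.23 to 0.79), Cd44 at 168 against 134 CPM and Mcam at 173 against 227 CPM (-0.40).

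Genes of IGF ligands and binding proteins had medians of 1.94, -2.29 and -0.08. Matrix proteases and inhibitors had 0.73, -1.10 and 0.20, where Adamts4 at 99.1 CPM, Timp3 at 1123 CPM, Mmp2 at 528 CPM and Serpinf1 at 332 CPM were the 4 of 13 genes 2-fold or more above Pcsk1-zero smooth muscle cells (3.42% of all genes). Complement genes had 0.59, -1.25 and 0.07, and lipid handling genes 0.55, -0.86 and 0.16. Calcification inhibitors and osteochondrogenic genes had 0.18, -0.45 and 0.21, with 0 of 7 called against smooth muscle cells (3.42% of all genes were higher and 0.603% lower). Sox9, a chondrogenic transcription factor, was at 54.2 CPM against 25.9 CPM in Pcsk1-zero smooth muscle cells, while 4 of the 7 chondrocyte markers were at 0. Collagen genes had medians of 0.31, -0.96 and 0.11, neointimal and epithelioid smooth muscle genes 0.22, -0.02 and 0.10, and heat shock proteins and chaperones 0.32, -0.30 and 0.22.

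For the remaining lists with 2 or more measured genes the medians within the smooth muscle class lay between -0.06 (integrin subunits) and 0.20 (cAMP-responsive and immediate early genes, and the 2 measured secreted Wnt antagonists). The precursor list had 1 measured gene there, Nucb2, at -0.21, and the convertase list 1, Pcsk5, at 0.15. In that class 1 of 16 TGF-beta and BMP genes, Tgfbr1, was 2-fold or more higher (0.246% of all genes), and 0 of 18 cAMP-responsive, 0 of 18 chaperone and 0 of 5 cell cycle genes were called. The cell cycle list had medians of 0.11, 0.37 and 0.17.

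**Figure D5:**
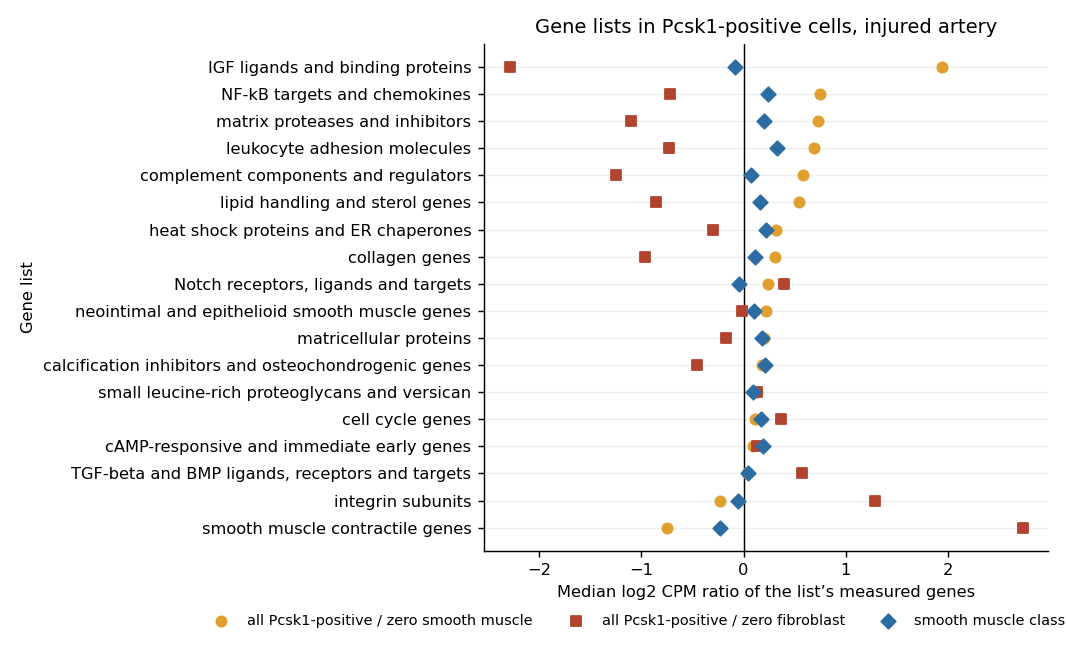
Points give the median log2 CPM ratio of the measured genes of 18 lists, each with 5 or more measured genes, for all Pcsk1-positive cells against Pcsk1-zero smooth muscle cells (orange circles) and fibroblasts (red squares), and for the smooth muscle class only (blue diamonds). Contractile genes lie at -0.75 (circle) and 2.73 (square), IGF genes at 1.94 and -2.29, and diamonds stay between -0.23 and 0.33.

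Inside the cluster, with high doublet scores left out, 71 of 2638 genes (2.69%) were 2-fold or more higher and 68 (2.58%) lower in the 46 Pcsk1-positive than in the 50 Pcsk1-zero cells, with intervals that exclude 0 for 57 and 50 of them. Csf1 was at 232 against 86.2 CPM (1.43, 0.69 to 2.21), Smc4 at 137 against 39.2 CPM and Rbpj, the transcription factor of Notch signals, at 78.8 against 27.4 CPM. Marcks was at 16.6 against 133 CPM (-3.01, -4.96 to -1.52), Tcf7l2 at 45.6 against 176 CPM, Fbln2 at 49.7 against 184 CPM and the fibroblast receptor gene Pdgfra at 29 against 90.1 CPM. Of the genes that led the cluster, Timp3 was at 2479 against 1787 CPM and Spp1 at 651 against 702 CPM.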

How the data were processed

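Cells of 2 droplet libraries were analysed from a matrix of UMI counts per gene and barcode that the authors deposited. Its header names Cell Ranger 3.1.0, which aligns with STAR, and the submitters' processing notes name Rnor_6.0 and Seurat; deposited barcodes had not been filtered by the limits used here. The libraries held 24968329 (control) and 28232614 (case) UMIs in 3321 and 5656 barcodes. Barcode suffixes were matched to libraries by the barcode numbers stated for the study, since no label gives them; 0 columns were left unused.

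Cells with 2000 or more UMIs and at most 20% mitochondrial UMIs were kept, and Pcsk1-positive cells had 2 or more Pcsk1 UMIs. UMIs were summed per group and given as CPM with exact Poisson intervals, shares with Clopper-Pearson intervals and ratios with exact conditional binomial intervals, at 95% and for counting error only. UMIs of 1 cell are not independent, so intervals are too narrow for differences between cells or animals. A gene was compared at a mean of 50 CPM or more over both groups and called at a ratio of 2-fold or more, with no condition on its interval. Pcsk1 and the class genes were left out. Clusters came from scanpy 1.11.5 (2000 variable genes without Pcsk1, 30 components, 20 neighbours, Leiden at 0.8). Scrublet called 8 of 4659 injured cells (0.172%), too few to have worked, so no doublets were removed, and the highest scores were left out as an alternative. TMM scaling used edgeR 4.0.16 in R 4.3.3.

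Named genes were the 15 highest and 10 lowest ratios with an interval excluding 0, the given markers and up to 4 genes per list; further genes were named after their values were seen. Members, markers and 22 lists were chosen with earlier results of these data known. There were 13 planned and 7 added kinds of alternative, the added ones chosen after seeing the data. The scripts were tested on simulated data.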

Additional observations from a re-analysis of the deposited data

How the results depend on the processing

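No ratio of Vcam1 or Mgp in all Pcsk1-positive cells to either Pcsk1-zero class changed sign under the alternatives run, but within the cluster Mgp went from 0.47 to -0.33 and Fibin from 0.41 to -0.66 when high doublet scores were left out. Over all results, 114 values stayed within their interval or, for counts, within 1.5 times, while 70 did not. No paired analysis was possible because each group is 1 library, and no replicate could be left out for the same reason. With TMM scaling all log2 ratios shifted by -0.14 against smooth muscle cells and by -0.23 against fibroblasts: Vcam1 over fibroblasts was 1.53, Mgp 0.29 and 0.19 over the 2 classes, and 25 genes were lower than in smooth muscle cells. Requiring 1 Pcsk1 UMI gave shares of 10.2% (injured) and 7.10% (control), requiring 3 gave 2.34% and 1.10%, and thinning gave 1.57% and 0.40%. With 3 UMIs, 42.2% of positive cells were smooth muscle and 44.0% neither class, Vcam1 ratios were 2.25 and 2.15, Mgp 0.57 and 0.56, Fibin 1.44 and 1.00, 31 genes were lower than in smooth muscle cells and 8 higher than in both classes. Thinned cells gave 42.5% and 43.8% for these shares, 8 genes higher than in both and a Fibin ratio over fibroblasts of 0.025.

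With class limits of 2% and 3%, 16.7% of cells were smooth muscle, 4.78% fibroblast and 78.5% neither, Vcam1 ratios were 2.13 and 2.01, Mgp over fibroblasts 0.63, Fibin 1.03, and 37 genes were lower than in smooth muscle cells. Within the same class, Vcam1 over smooth muscle was 0.68, Mgp 0.31 and 0.82, and Fibin over fibroblasts -0.54; 6 genes were higher and 0 lower than in smooth muscle, 108 higher and 59 lower than in fibroblasts, and 0 higher than in both. Without a CPM minimum, 2507 genes were higher and 586 lower than in smooth muscle, 2824 and 1110 than in fibroblasts and 679 higher than in both, counts that hold many genes of few UMIs; at 200 CPM they were 18, 3, 77, 86 and 1. A minimum of 4000 UMIs left 2 genes higher than in both, and leaving out the class II cells left 1. With the Pcsk1-positive cells of the Vcam1- and Fibin-led cluster left out, and its Pcsk1-zero cells kept in the comparison groups, Vcam1 ratios were 0.74 and 0.65, Mgp 0.11 and 0.10, Fibin 0.41 and -0.031, and 6 genes were lower than in smooth muscle. With all its cells left out, Vcam1 ratios were 0.72 and 0.75, Mgp 0.11 and 0.12, Fibin 0.46 and 0.038, and 6 genes were lower. With high doublet scores left out, Vcam1 over fibroblasts was 1.95 and the highest cluster share 40.4%; at resolution 0.4 that share was 6.98%. The cause of these shifts was not tested.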
